A study of Mus musculus with 7 samples.

Results

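The muscle acetylcholine receptor is described here through the 5 genes that encode its subunits, Chrna1, Chrnb1, Chrnd, Chrne and Chrng, which were chosen by name from 53083 genes shared by all the tables. RNA had been sequenced section by section from 7 mouse tibialis anterior muscles, a large muscle of the shin. The labels name 3 groups, WT (2 muscles), Ctr (2) and DMD (3), the last after Duchenne muscular dystrophy, a disease in which the muscle protein dystrophin is lost. The labels give no strain, allele, age or treatment for any group. The column names carry pax7 for WT, hDMD for Ctr and mdx for DMD without explanation, and whether WT, Ctr and DMD differ in more than dystrophin was not stated. No label says whether each muscle came from its own animal, and p-values therefore reflect only the spread among these 7 samples.

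Of 525 sections, 422 were used (114 WT, 116 Ctr and 192 DMD), and total counts per muscle ran from 11316565 to 41699100. The 8 muscle fibre genes checked (Acta1, Ckm, Mylpf, Tnnt3, Myh4, Myh1, Tnni2 and Actn3) were detected in every muscle and summed to between 48667 and 82602 CPM (counts scaled to library size). Reads of the WT muscles had been counted on a different gene annotation from the rest, and in any comparison with WT this step or a batch cannot be told apart from the group. In whole sections, fewer cells of a type and less RNA per cell cannot be told apart.

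The receptor is a pentameric ion channel that opens when the motor nerve releases acetylcholine and so starts contraction. The alpha subunit (Chrna1) carries the main part of the transmitter binding site, and beta (Chrnb1) and delta (Chrnd) complete the channel together with either gamma (Chrng) in fetal and denervated muscle or epsilon (Chrne) in adult muscle. In innervated adult fibres the receptor genes are transcribed mainly by the few nuclei under the neuromuscular junction, and electrical activity keeps them low elsewhere. Myogenic transcription factors act on these genes through E-boxes, and factors of the Ets family act at the synapse through a motif called the N-box.

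All 5 genes were found in every table with the same exon length in both annotations. In GRCm38, Chrna1 spans chr2:73563215-73580338 (minus strand, 4386 exon bases), Chrnb1 chr11:69784036-69795943 (minus, 2531), Chrnd chr1:87190607-87200070 (plus, 3288), Chrne chr11:70614883-70619216 (minus, 1690) and Chrng chr1:87204657-87212694 (plus, 4163). Chrnd and Chrng are neighbours on the same strand with 4586 bases between them. No member overlapped another gene on its own strand, and Chrne overlapped 4930544D05Rik on the opposite strand, which the stranded counting keeps apart. Of 1266 nonzero member values per section, 22 (1.74%) were not whole, that is, held a read shared with another gene or place.

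The 250 bases before the start that RefSeq annotates are shown for the 4 members in its table (GRCm38.p6), because members that rose together or lay together along the muscle can be read against them. Chrnd had no entry. Capitals mark E-boxes (CANNTG, which reads the same on both strands) and the N-box (CCGGAA, searched on both strands). No 2 marked motifs overlap. The windows are chr2:73580339-73580588 (minus) for Chrna1, chr11:69795938-69796187 (minus) for Chrnb1, chr11:70619195-70619444 (minus) for Chrne and chr1:87205561-87205810 (plus) for Chrng. RefSeq's start of Chrng lies downstream of the start of the span given above, so that this window falls inside that span, and the windows of Chrnb1 and Chrne overlap the first bases of theirs.
Chrna1: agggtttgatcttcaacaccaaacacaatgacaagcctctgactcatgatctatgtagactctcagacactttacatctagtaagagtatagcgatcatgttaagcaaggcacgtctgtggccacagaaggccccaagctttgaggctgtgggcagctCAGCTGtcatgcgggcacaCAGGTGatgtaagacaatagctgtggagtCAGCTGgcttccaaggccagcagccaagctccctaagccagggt
Chrnb1: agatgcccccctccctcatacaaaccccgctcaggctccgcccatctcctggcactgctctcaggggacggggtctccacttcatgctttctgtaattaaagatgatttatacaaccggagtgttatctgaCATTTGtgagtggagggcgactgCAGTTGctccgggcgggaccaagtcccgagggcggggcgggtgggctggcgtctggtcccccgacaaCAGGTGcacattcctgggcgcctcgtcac
Chrne: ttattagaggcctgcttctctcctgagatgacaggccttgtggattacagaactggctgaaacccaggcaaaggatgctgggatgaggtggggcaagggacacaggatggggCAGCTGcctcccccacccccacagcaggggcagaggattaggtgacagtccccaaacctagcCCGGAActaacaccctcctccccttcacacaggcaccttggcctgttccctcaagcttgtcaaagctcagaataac
Chrng: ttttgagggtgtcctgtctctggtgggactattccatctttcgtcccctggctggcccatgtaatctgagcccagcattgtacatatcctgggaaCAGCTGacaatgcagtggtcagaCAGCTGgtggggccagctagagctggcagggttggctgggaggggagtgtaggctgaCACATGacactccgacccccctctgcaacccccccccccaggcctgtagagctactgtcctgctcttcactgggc
Chrna1 held 3 E-boxes, whose first bases lay 92, 73 and 44 bases before the start. Those at 92 and 44 had the core CAGCTG. Chrng also held 3, of which those at 155 and 132 had the core CAGCTG and that at 75 read CACATG. Chrnb1 held 3 E-boxes and none with that core. Chrne held 1 E-box with the core CAGCTG at 138, and was the only 1 of the 4 windows with an N-box, at 76. Among 32851 RefSeq windows of the same length, 66.2% held an E-box, 13.0% held CAGCTG, 1.26% held CAGCTG at least 2 times and 12.0% held the N-box. Letters in a window are a description and do not show binding.

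Over whole muscles, the receptor genes were at similar levels in WT and Ctr and higher in DMD. Chrna1 and Chrnb1 rose against both groups, the fetal gene Chrng was found almost only in DMD muscles, and the adult gene Chrne had the smallest called difference. All levels in this section are TMM-scaled CPM over the kept sections of a muscle, and a gene was called at a Benjamini-Hochberg adjusted p below 0.05 over all genes tested.

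**Figure D1:**
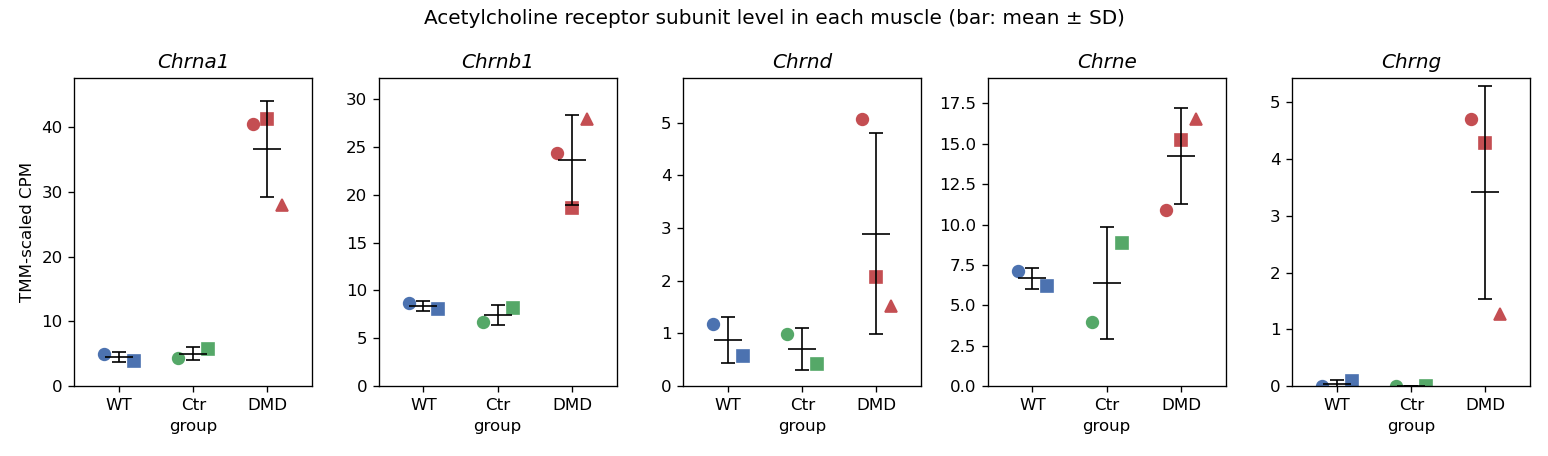
TMM-scaled CPM (y axis, from 0, a different range for each gene) of each subunit gene in WT, Ctr and DMD muscles (x axis); circles, squares and triangles are replicates 1, 2 and 3, and the black bars give mean ± SD. Every DMD muscle lies above all 4 WT and Ctr muscles for Chrna1, Chrnb1, Chrnd and Chrne, as it does for 14.5% of 13746 genes tested. The same holds for Chrng, which passed the low-count filter only through DMD. Relative to their mean the DMD muscles differ most among themselves for Chrnd and Chrng.

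Chrna1, the ligand-binding alpha subunit, stood at 5.01 and 3.93 CPM in the WT muscles, 4.32 and 5.70 in the Ctr muscles and 40.6, 41.4 and 28.0 in the DMD muscles. The lowest DMD muscle was far above the highest of the others. Group means were 5.01 ± 0.980 CPM in Ctr (SD, n = 2) and 36.7 ± 7.49 CPM in DMD (SD, n = 3), a log2 difference of 2.88 ± 0.27 (SE) with an adjusted p of 0.00186. Against WT the log2 difference was 3.03 ± 0.28 (adjusted p = 0.00058).

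Chrnb1, the beta subunit found in both fetal and adult receptors, stood at 8.72 and 8.03 CPM in the WT muscles, 6.72 and 8.17 in the Ctr muscles and 24.4, 18.6 and 28.0 in the DMD muscles. Again the groups did not overlap. The log2 difference was 1.67 ± 0.24 against Ctr (adjusted p = 0.00694) and 1.497 ± 0.24 against WT (adjusted p = 0.00713). The difference from Ctr no longer passed when Ctr replicate 1 was left out (1.53, adjusted p = 0.0943). Without either WT replicate the difference from WT did not pass, with adjusted p of 0.0954 without WT replicate 1 and 0.127 without WT replicate 2.

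Chrne, the adult epsilon subunit, stood at 7.11 and 6.22 CPM in the WT muscles, 3.95 and 8.85 in the Ctr muscles and 10.9, 15.2 and 16.6 in the DMD muscles. DMD replicate 1 lay only slightly above Ctr replicate 2, and the Ctr muscles differed from each other more than the WT muscles did. The log2 difference was 1.17 ± 0.34 against Ctr, at the edge of the threshold (adjusted p = 0.0495), and 1.09 ± 0.33 against WT (adjusted p = 0.0537). The call against Ctr was lost without either WT muscle, without Ctr replicate 1 (log2 difference 0.68, adjusted p = 0.325), without DMD replicate 1 (adjusted p = 0.0658) or 2 (adjusted p = 0.100), and when only the Ctr and DMD groups were fitted (adjusted p = 0.0870).

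Chrnd, the delta subunit, was sparse, with 22 and 7 counts in the WT muscles, 16 and 5 in Ctr and 296, 31 and 35 in DMD. Its levels were 1.18 and 0.573 CPM in the WT muscles, 0.987 and 0.426 in the Ctr muscles and 5.08, 2.07 and 1.53 in the DMD muscles, so DMD replicate 1 stood well above the other two. The log2 difference of 2.02 ± 0.63 from Ctr did not pass (adjusted p = 0.0603), nor did that of 1.71 ± 0.60 from WT (adjusted p = 0.0794). Without DMD replicate 3 it passed in both (adjusted p = 0.0116 against Ctr and 0.0170 against WT), and with DESeq2 it passed in both as well (adjusted p = 0.0192 and 0.0456). In all it passed under 4 of 13 alternatives in each comparison, the others being no low-count filter and the replicate block.

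Chrng, the fetal gamma subunit, had 275, 64 and 29 counts in the DMD muscles, 0 and 1 in WT and 0 in both Ctr muscles. In DMD these were 4.72, 4.28 and 1.26 CPM. The DMD mean was at least 31.9-fold higher than the level of 3 counts summed over both Ctr muscles, taken as a floor, and the call against Ctr had an adjusted p of 0.0108 (0.0991 without Ctr replicate 1). Pooled over muscles, DMD exceeded WT by a ratio of 118 on a single WT count, with a 95% counting interval of 21.0 to 4663. That call had an adjusted p of 0.00986, which became 0.112 without WT replicate 1 and 0.0878 without WT replicate 2. Chrng passed the low-count filter only through the DMD muscles, so that it had to differ there.

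Leaving out Chrng, which passed the filter only through DMD, 3 of the other 4 members (Chrna1, Chrnb1 and Chrne) rose against Ctr and 2 (Chrna1 and Chrnb1) against WT. Among all 13746 genes tested, 12.7% were called in DMD against Ctr, 7.17% higher and 5.49% lower. In DMD against WT 15.2% were called, 8.25% higher and 6.92% lower. The same 4 members, Chrnd among them, were higher in each DMD muscle than in both Ctr muscles, as were 23.8% of all genes tested, and higher than in all 4 WT and Ctr muscles, as were 14.5%. Between WT and Ctr 0.364% of genes were called and no member was. The lowest adjusted p of a member under any alternative there was 0.360, for Chrne. The comparisons of DMD with Ctr and with WT share the DMD muscles.

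Marker genes of other cell types and of regenerating fibres also differed between the same groups. The 8 macrophage genes all rose in DMD against Ctr, and their summed level was 33.1 and 58.5 CPM in the Ctr muscles, 51.2 and 61.3 in the WT muscles and 743, 631 and 142 in the DMD muscles. The 8 regenerating fibre genes summed to 178 and 162 CPM in the Ctr muscles, 175 and 105 in the WT muscles and 329, 1046 and 579 in the DMD muscles, and 6 of them rose. Mymx, a fusion protein of new fibres, was at 0 in all 4 WT and Ctr muscles. The 8 muscle fibre genes summed to 67357 and 82602 CPM in Ctr and 48667, 57205 and 65765 in DMD, and none was called. Of the 6 fibro-adipogenic progenitor genes, which mark connective tissue cells of muscle, 3 rose against Ctr and 1 against WT. They summed to 426 and 452 CPM in Ctr, 533 and 577 in WT, and 738, 1099 and 546 in DMD, so that the sum of DMD replicate 3 lay within the WT range. Gene by gene, Pdgfra, Dpt and Col3a1 of that muscle stood above both WT muscles, Dcn and Lum between them and Ly6a below. Of the 7 Schwann cell genes 1 rose and 2 fell against Ctr, and of the 6 endothelial genes none was called. The part of these other cells and fibres in the receptor result was not tested.

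The order of the genes also differed by group on a scale of TMM-scaled CPM per kilobase of exon, the scale on which genes were compared with each other. Whether reads cover whole transcripts is not given in the sources used here, and if they do not, a length scale misstates this order. In WT, Chrne led with 3.94 ± 0.370 (SD, n = 2), followed by Chrnb1 with 3.31 ± 0.195, Chrna1 with 1.02 ± 0.174, Chrnd with 0.267 ± 0.131 and Chrng with 0.00984 ± 0.0139. In Ctr, Chrne at 3.79 ± 2.05 (SD, n = 2) and Chrnb1 at 2.94 ± 0.405 could not be ordered, since Ctr replicate 1 had Chrnb1 first, and Chrna1 followed at 1.14 ± 0.223. In DMD, Chrnb1 at 9.34 ± 1.88 (SD, n = 3), Chrne at 8.43 ± 1.75 and Chrna1 at 8.36 ± 1.71 did not differ beyond their spread, and each muscle had a different order of these 3. Chrnd at 0.880 ± 0.582 and Chrng at 0.821 ± 0.451 overlapped in DMD as well. On this scale Chrna1 had rank 3 in all 4 WT and Ctr muscles and reached the level of Chrnb1 and Chrne in DMD. Without division by exon length the order of the means was another. Chrnb1, Chrne and Chrna1 then stood at 8.38, 6.67 and 4.47 CPM in WT and 7.45, 6.40 and 5.01 in Ctr. In DMD they stood at 23.6, 14.2 and 36.7 CPM, with Chrna1 highest.

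The balance between subunits was compared within each muscle, where scaling between muscles plays no part. The log2 ratio of Chrne to Chrna1 counts was 0.50 and 0.66 for the WT muscles, -0.13 and 0.63 for the Ctr muscles, and -1.90, -1.44 and -0.76 for the DMD muscles. Every DMD muscle thus lay below every other muscle. The difference between the DMD mean and the mean of the other 4 was -1.78, with an exact two-sided permutation p of 0.0571, the smallest that 35 splits of 3 against 4 muscles allow, so that this design cannot pass 0.05. Leaving out 1 muscle at a time gave differences from -2.08 to -1.51.

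The share of Chrng in the sum of Chrng and Chrne counts marks the balance of fetal and adult subunit transcripts. It was 0 of 132 counts in WT replicate 1, which allows a share of up to 2.27% by the limit of 3 counts (exact upper bound 2.76%), and 1 of 77 (1.30%, 95% exact Clopper-Pearson interval 0.0329 to 7.02) in WT replicate 2. It was 0 of 64 and 0 of 104 in Ctr, which allow up to 4.69 and 2.88% by the same limit (exact upper bounds 5.60 and 3.48%). In DMD it was 275 of 911 (30.2%, 27.2 to 33.3), 64 of 292 (21.9%, 17.3 to 27.1) and 29 of 409 (7.09%, 4.80 to 10.02). The DMD muscles differed from each other beyond counting error, with replicate 3 lowest. DMD exceeded the others by 19.4 percentage points on average (exact two-sided permutation p = 0.0571, again the smallest possible, and 0.0571 after adjustment over the 2 balances tested). Intervals and floors cover counting error only.

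**Figure D2:**
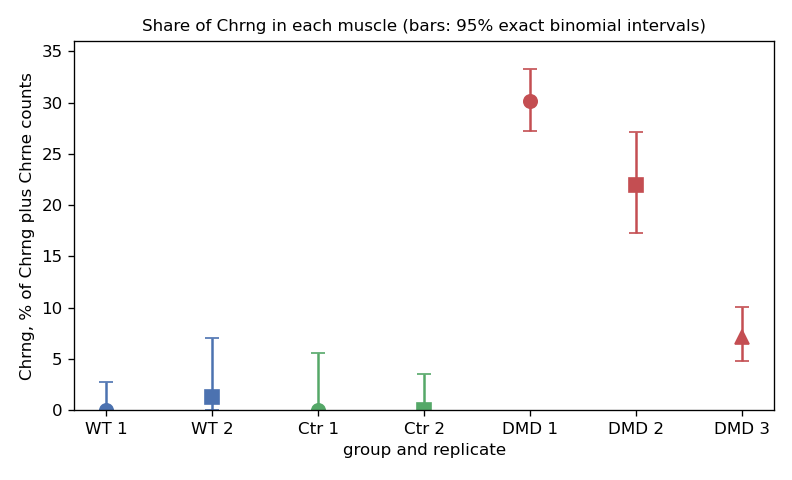
Chrng counts as a percent of Chrng plus Chrne counts (y axis) in each of the 7 muscles (x axis), with 95% exact binomial intervals as bars. The DMD muscles lie at 30.2, 21.9 and 7.09%, and the other muscles at 0 or 1.30%.

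DMD replicate 3, which had the lowest Chrng share, also had the lowest macrophage sum of the DMD muscles (142 CPM) and the lowest Myog level. The regenerating fibre sum was lowest in replicate 1 (329 CPM), which had the highest Chrng share. Most of that sum was Actc1 (220, 838 and 512 CPM in replicates 1, 2 and 3), which was lowest in replicate 1, as was Myh8. Mymk (18.6, 22.7 and 5.01 CPM), Mymx, Myh3, Tnnt2 and Myl4 were lowest in replicate 3, and Cdh15 in replicate 2. A link of these genes to the Chrng share was not tested. Myog encodes myogenin, a myogenic factor that is raised by denervation and in regenerating fibres, and stood at 30.7, 12.5 and 3.84 CPM in DMD replicates 1, 2 and 3, against 2.34 and 0.851 in Ctr. Chrng was at 4.72, 4.28 and 1.26 CPM in the same 3 muscles.

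Genes that work with the receptor were called about as often as all genes. Of 21 receptor clustering and synaptic genes, 19 were tested in DMD against Ctr, 2 rose and none fell, where 7.17% of all genes were called higher and 5.49% lower. Their median log2 difference was 0.40 against 0.02 over all genes. The 2 were Colq, the collagen tail that anchors acetylcholinesterase in the synaptic cleft (1.98 ± 0.49, adjusted p = 0.0326), and Ache, the enzyme itself (1.60 ± 0.37, adjusted p = 0.0271). The call of Colq was lost under 3 of 13 alternatives and that of Ache under 6. Ache was at 2.78 and 8.17 CPM in Ctr and 16.6, 18.0 and 14.6 in DMD, so its Ctr muscles were far apart as those of Chrne were. Rapsn, the rapsyn protein that clusters the receptor in the membrane, was at 13.7 and 13.4 CPM in Ctr and 14.0, 11.8 and 10.5 in DMD, a log2 difference of -0.16 ± 0.20 (adjusted p = 0.631). Against WT none of the 19 rose and 2 fell (6.92% of all genes were called lower), Pla2g7 (-0.96 ± 0.22, adjusted p = 0.0239) and Crk, an adaptor of the agrin pathway (-0.84 ± 0.23, adjusted p = 0.0380).

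Of 12 activity and denervation genes, 11 were tested against Ctr, 3 rose and 3 fell, beside 7.17% of all genes called higher and 5.49% lower. Against WT 3 rose and 1 fell, beside 8.25 and 6.92%. Myog rose by 3.26 ± 0.80 (adjusted p = 0.0312) and Runx1, a transcription factor raised in denervated muscle, by 3.28 ± 0.56 (adjusted p = 0.0113). The third was Ncam1, an adhesion molecule raised in denervated fibres (2.51 ± 0.61, adjusted p = 0.0300), and the other two that fell beside Dach2 were the ubiquitin ligases Fbxo32 (adjusted p = 0.0284) and Trim63 (adjusted p = 0.0357). Fbxo32 stood at 1184 and 234 CPM in the Ctr muscles, 124 and 161 in the WT muscles and 102.3, 62.8 and 197 in the DMD muscles. Trim63 stood at 495 and 78.8 CPM in Ctr, against 82.8 and 62.3 in WT and 67.2, 50.9 and 74.3 in DMD. In both genes Ctr replicate 1 stood far above every other muscle, and neither was called against WT (adjusted p = 0.817 and 0.858). Ncam1 and Trim63 were named after their values were seen. Runx1 stood at 1.11 and 0.511 CPM in Ctr and 13.3, 6.55 and 4.40 in DMD. Dach2, a repressor of Myog, was called lower (adjusted p = 0.00196), with 1.85 and 1.53 CPM in Ctr and 0.0343, 0 and 0 in DMD. The call of Myog was lost under 7 of 13 alternatives, that of Runx1 under 1 and that of Dach2 under none. The 11 nicotinic subunit genes of neurons and other cells were all too low to be tested over whole muscles, and summed to between 0.172 and 2.41 CPM per muscle.

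Along the section order, Chrne was highest in the middle of every muscle. Chrna1 had the same middle peak in WT and Ctr. In DMD it was found in every stretch, and only replicate 3 had its highest stretch in the middle. Chrnb1 showed no middle peak in any group. The kept sections of a muscle were put in the order of the section numbers in the column names and divided into 10 stretches. The labels do not state where a section lay or which end came first, so ends cannot be matched between muscles. CPM in stretches are unscaled.

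Chrne reached its highest level in stretch 4, 5 or 6 in all 7 muscles. The highest stretch held 8.85 and 7.98 CPM in the WT muscles, 8.58 and 16.9 in the Ctr muscles and 27.8, 40.5 and 24.4 in the DMD muscles. In stretch 1 the levels were 0.844 and 0.947 CPM in the WT muscles, 0 and 4.81 in the Ctr muscles and 4.43, 8.25 and 7.41 in the DMD muscles. Chrne counts were thus concentrated in the middle in each group.

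Chrna1 was highest in stretch 5 and 7 in WT (6.56 and 4.41 CPM) and in stretch 7 and 4 in Ctr (10.8 and 14.2). In the last 20% of sections it had 0 and 3 counts in WT and 1 and 2 in Ctr. In DMD it was highest in stretch 10 in replicate 1 (107 CPM) and replicate 2 (76.0), and in stretch 4 in replicate 3 (38.2). Its lowest stretch in these muscles still held 25.6, 40.9 and 16.1 CPM, above the highest stretch of every WT and Ctr muscle. Reads of Chrna1 were found in 62 and 50% of kept sections in the WT muscles, 47.5 and 50.9% in those of Ctr and 100, 98.5 and 91.7% in those of DMD, at different depths.

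**Figure D3:**
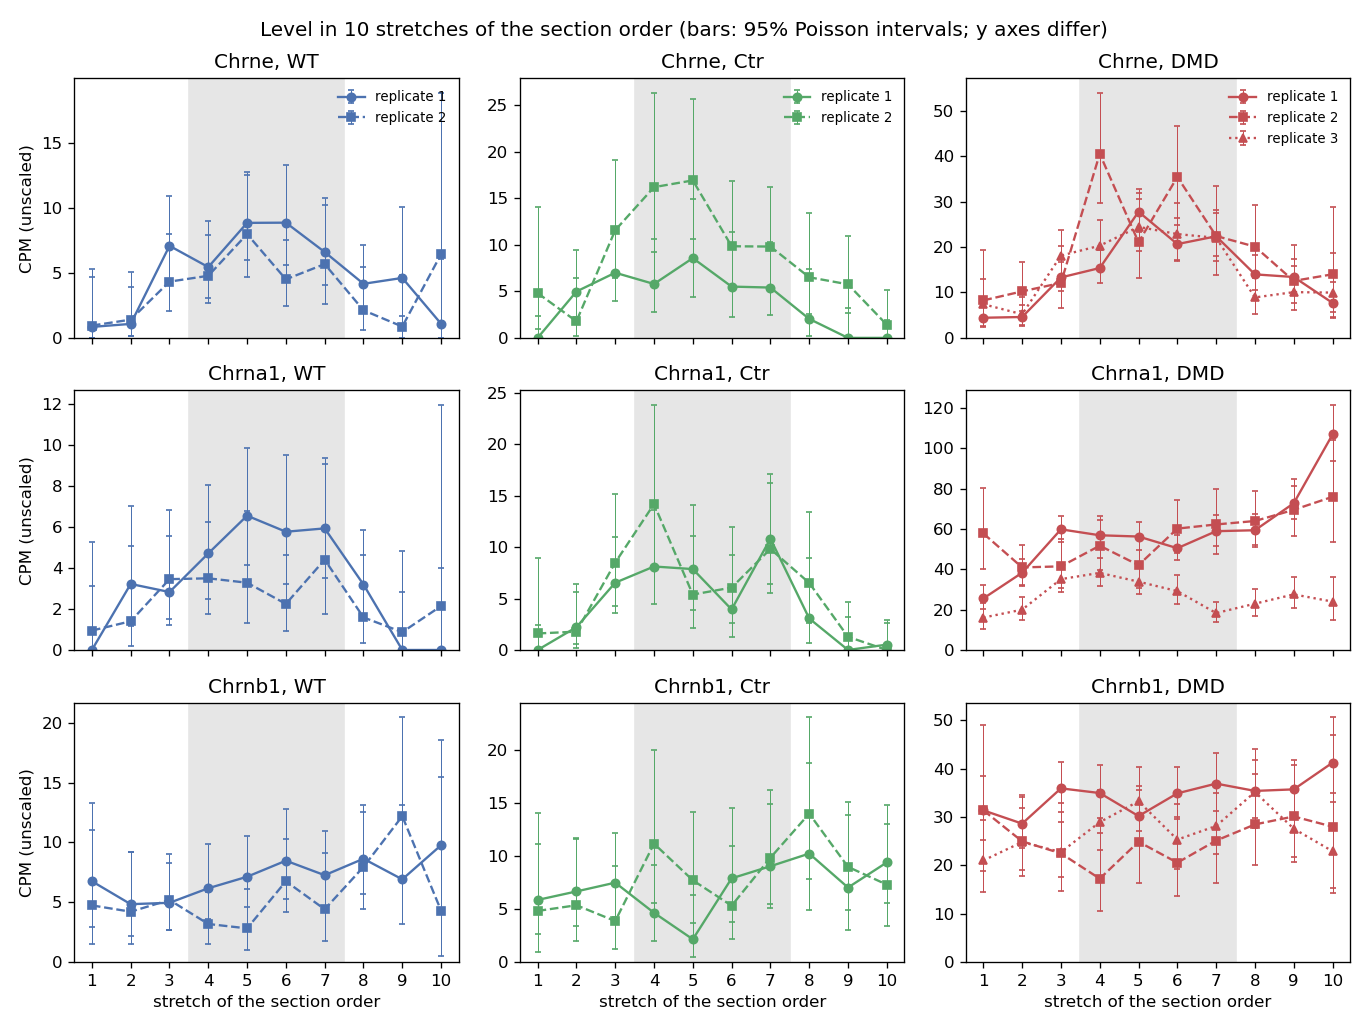
Unscaled CPM (y axis, a different range in each panel) of Chrne, Chrna1 and Chrnb1 in 10 stretches of the section order (x axis) in WT, Ctr and DMD, with 1 line per muscle and 95% Poisson intervals as bars; grey marks stretches 4 to 7. Chrne peaks within the grey band in all 7 muscles, Chrna1 in the 4 WT and Ctr muscles and DMD replicate 3, and Chrnb1 in none.

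To test this, counts were summed over the middle 40% of the section order (position 30 to 70%) and the outer 60%, 2 sums per muscle, with the muscle as a term in the fit. These bounds were chosen after the profiles were seen, so the tests describe the size of the pattern and are not independent of it. Chrne was higher in the middle by a log2 difference of 1.19 ± 0.11 on average over the 3 groups (adjusted p = 2.9e-08), and Chrna1 by 1.03 ± 0.12 (adjusted p = 2.2e-06). Chrnb1 differed by -0.10 ± 0.10 (adjusted p = 0.958) and Chrnd, with few counts, by 0.91 ± 0.29 (adjusted p = 0.340). Over all genes, 0.430% of 13022 were called. With a narrower middle of 30%, Chrna1 was higher by 0.50 and did not pass (adjusted p = 0.0671).

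In the middle and outer sections, Chrne stood at 9.34 and 4.86 CPM in WT replicate 1, 8.33 and 3.67 in WT replicate 2, 5.93 and 2.51 in Ctr replicate 1 and 14.5 and 4.94 in Ctr replicate 2. In DMD it stood at 15.5 and 7.10, 23.1 and 9.30, and 22.1 and 11.0 in replicates 1 to 3. The middle was higher in 7 of 7 muscles. The log2 difference was 1.03 ± 0.21 in WT (adjusted p = 0.0547), 1.42 ± 0.23 in Ctr (adjusted p = 0.00125) and 1.13 ± 0.11 in DMD (adjusted p = 2.5e-07). In these 3 tests 0.0614, 0.108 and 0.238% of 13022 genes were called.

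Chrna1 stood at 7.24 and 2.71 CPM in the middle and outer sections of WT replicate 1, 5.12 and 2.51 in WT replicate 2, 7.41 and 2.09 in Ctr replicate 1 and 9.50 and 3.05 in Ctr replicate 2. In DMD the values were 41.2 and 39.6, 41.0 and 40.4, and 29.8 and 26.7. The middle was thus well above the outer sections in 4 of 4 WT and Ctr muscles, and within a few CPM of them in DMD. The outer sections pool both ends of the order, which were unlike in DMD replicates 1 and 2. Their first and last 20% held 32.8 and 84.3, and 48.0 and 71.2 unscaled CPM. DMD replicate 3 was not level along the order either. Its stretches 3, 4 and 5 held 35.1, 38.2 and 33.9 unscaled CPM, against 16.1 in stretch 1 and 18.3 in stretch 7. The bounds put stretch 3 in the outer sum and stretch 7 in the middle sum. The log2 difference was 1.28 ± 0.25 in WT (adjusted p = 0.0356), 1.73 ± 0.24 in Ctr (adjusted p = 0.000204) and 0.07 ± 0.08 in DMD (adjusted p = 1).

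The middle-to-outer difference of Chrna1 was smaller in DMD than in Ctr by 1.65 log2 units (-1.65 ± 0.26, adjusted p = 0.00226), where 0.0307% of 13022 genes were called (0.00768% against WT). This call was lost without Ctr replicate 1 (-1.56, adjusted p = 0.512), without Ctr replicate 2 (-1.74, adjusted p = 0.178) and with a middle of 30% (-0.64, adjusted p = 1). Against WT the difference was -1.20 ± 0.27 and did not pass (adjusted p = 0.377). For Chrne the corresponding differences were -0.29 ± 0.25 against Ctr and 0.10 ± 0.25 against WT (both adjusted p = 1), and for Chrnb1 0.12 ± 0.24 and 0.12 ± 0.22 (both adjusted p = 1).

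**Figure D4:**
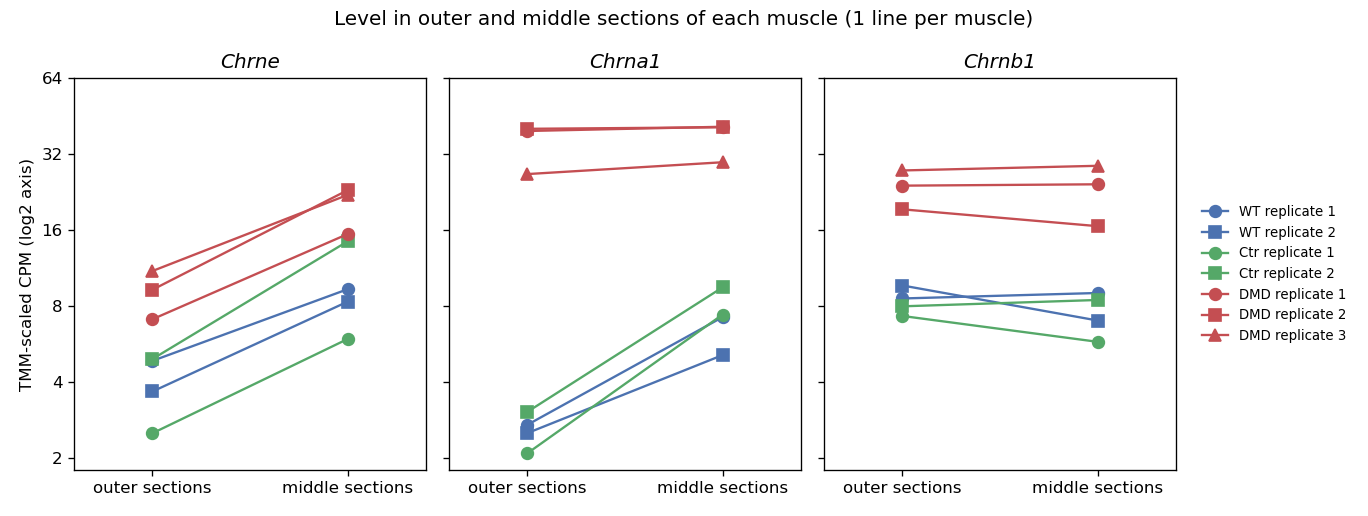
TMM-scaled CPM on a log2 axis (y) of Chrne, Chrna1 and Chrnb1 in outer and middle sections (x), with 1 line per muscle. Chrne lines rise in all 7 muscles and Chrna1 lines in the 4 WT and Ctr muscles, while the 3 DMD lines of Chrna1 are nearly level and the lines of Chrnb1 rise in 4 muscles and fall in 3.

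The balance of Chrne to Chrna1 also differed by position in DMD. There were 0.375, 0.563 and 0.742 Chrne counts per Chrna1 count in the middle of the DMD muscles and 0.179, 0.230 and 0.413 in their outer sections. In WT and Ctr the middle had 1.29, 1.63, 0.800 and 1.52 and the outer sections 1.79, 1.46, 1.20 and 1.62. The balance was lower in the outer sections in 3 of 3 DMD muscles and in 1 of 4 others.

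Schwann cell genes, which mark the myelinating cells of nerve, lay in the middle as well. All 7 were higher there, and 3 were called, among them Mbp (0.51 ± 0.07, adjusted p = 0.000120) and Sox10 (0.86 ± 0.18, adjusted p = 0.0157). The call of Sox10 was lost under 5 of 13 alternatives, with adjusted p up to 0.896. Over whole muscles they summed to 68.0 and 66.4 CPM in the WT muscles, 52.4 and 67.9 in the Ctr muscles and 41.8, 47.9 and 41.2 in the DMD muscles. Among 21 receptor clustering and synaptic genes, 18 were tested and only Etv5, an Ets factor of synaptic nuclei, was called higher in the middle (0.78 ± 0.12, adjusted p = 0.000443). Middle sections were also deeper, with medians of 179597 to 756686 counts per section against 160113 to 543952 in outer sections, deeper in each of the 7 muscles. The part of nerve and of depth in the pattern was not tested.

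DMD was then compared with Ctr separately in the middle and outer sections. Chrna1 was higher in DMD by 2.16 ± 0.28 in the middle (adjusted p = 0.00239) and by 3.85 ± 0.31 in the outer sections (adjusted p = 0.00160), and Chrnb1 by 1.74 ± 0.31 (adjusted p = 0.00907) and 1.67 ± 0.23 (adjusted p = 0.00746). Chrne was higher by 1.01 ± 0.35 in the middle, which did not pass (adjusted p = 0.0825), and by 1.35 ± 0.34 in the outer sections (adjusted p = 0.0409). Chrnd differed by 1.62 ± 0.64 and 2.47 ± 0.72 and passed in neither. Chrng had 0 counts in the Ctr sections of both kinds and passed the low-count filter only through DMD, so its calls there are not read as a result. Of all genes, 10.8% were called in the middle and 8.45% in the outer sections. Member calls were lost in both without Ctr replicate 1, which leaves 1 Ctr muscle. Calls over all genes in the middle also fell steeply then, so the loss there was not particular to the members. With 1 muscle left out, the difference of Chrna1 ran from 1.97 to 2.33 in the middle and from 3.56 to 4.10 in the outer sections.

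Another split of the sections used synaptic genes other than the members. Synaptic-rich sections were the 20% of sections with the highest mean score of Colq, Ufsp1, Etv5, Etv4, Musk, Ache and Lrp4, most of which had under 3 CPM, so the score is noisy. Chrne was higher there than in the remaining sections in 7 of 7 muscles, by 0.42 ± 0.11 on average, which did not pass (adjusted p = 0.235). It stood at 9.20 and 6.50 CPM in the synaptic-rich and remaining sections of WT replicate 1, 8.23 and 5.78 in WT replicate 2, 4.74 and 3.73 in Ctr replicate 1 and 10.5 and 8.30 in Ctr replicate 2. In DMD it stood at 13.5 and 10.5, 18.7 and 14.4, and 21.7 and 15.2. Chrna1 differed by 0.27 ± 0.13, Chrnd by 0.99 ± 0.33 and Chrnb1 by -0.07 ± 0.11, and none passed. Only 0.0784% of 12756 genes were called. With scores smoothed along the section order, Chrne was higher by 0.80 (adjusted p = 0.000809) and Chrna1 by 0.82 (adjusted p = 0.00109), and both passed.

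The rise in DMD was present in both kinds of section. In synaptic-rich sections, Chrna1 was higher in DMD than in Ctr by 2.68 ± 0.35 (adjusted p = 0.00254) and Chrnb1 by 1.91 ± 0.32 (adjusted p = 0.00746), and in the remaining sections by 2.97 ± 0.27 (adjusted p = 0.000927) and 1.63 ± 0.24 (adjusted p = 0.00625). Of all genes, 8.28% and 12.2% were called. Chrne was higher by 1.25 ± 0.35 (adjusted p = 0.0486) and 1.13 ± 0.33 (adjusted p = 0.0504), on either side of the threshold. Chrnd differed by 1.08 ± 0.81 in synaptic-rich sections (adjusted p = 0.439) and by 2.62 ± 0.68 in the remaining ones (adjusted p = 0.0351). With 1 muscle left out, its value in synaptic-rich sections ran from 0.12 (without Ctr replicate 2) to 7.37 (without Ctr replicate 1), and its call in the remaining sections was lost under 7 of 17 alternatives, among them leaving out any muscle other than DMD replicate 3. The test of the difference between the 2 kinds of section called no gene in DMD against Ctr with edgeR (656 at an unadjusted p below 0.05) or with DESeq2 (92), and none against WT (591 and 98). No member was thus shown to rise more in one kind of section than in the other, and the log2 difference between them against Ctr was -0.31 ± 0.28 for Chrna1 and 0.26 ± 0.25 for Chrnb1. Member calls were lost in both kinds of section without Ctr replicate 1, which leaves 1 Ctr muscle. Calls over all genes also fell steeply in both, so the loss was not particular to the members. With 1 muscle left out, the difference of Chrna1 ran from 2.27 to 3.13 in synaptic-rich sections and from 2.85 to 3.12 in the remaining ones. When only the Ctr and DMD groups were fitted, Chrna1 and Chrnb1 were called in synaptic-rich sections and Chrne (adjusted p = 0.0835) and Chrng (adjusted p = 0.0641) were not.

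**Figure D5:**
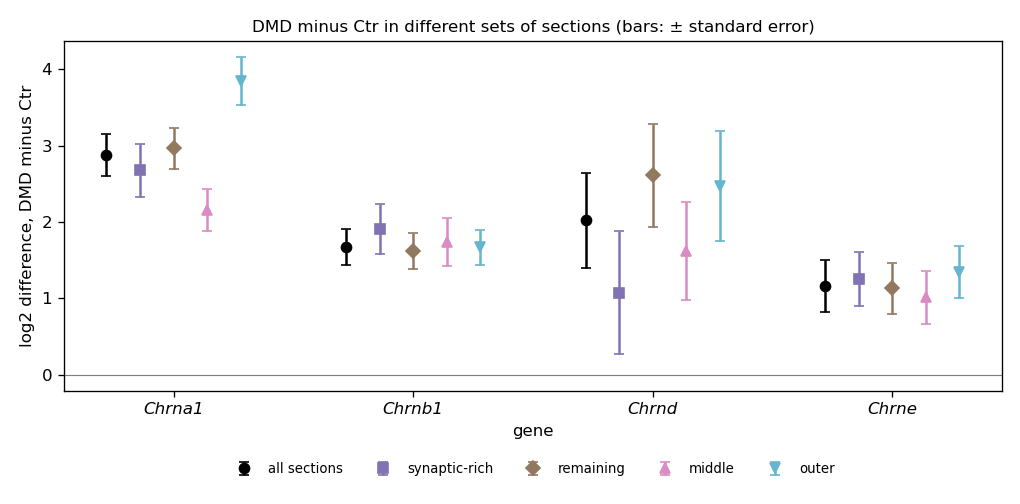
Log2 difference, DMD minus Ctr (y axis), with its standard error as a bar, for 4 subunit genes (x axis) in all sections, synaptic-rich, remaining, middle and outer sections. Chrna1 differs most in outer sections (3.85) and least in the middle (2.16), while the values of Chrnb1 lie between 1.63 and 1.91.

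Within DMD, sections rich in regenerating fibre genes were compared with the rest. These were the 20% of sections of a muscle with the highest mean score of Myh3, Myh8, Mymk, Mymx, Tnnt2, Myl4, Actc1 and Cdh15. Chrna1 was higher there by 0.52 ± 0.10 (adjusted p = 0.0240), while 0.0794% of 12587 genes were called. Among them were 3 genes of the score itself, Mymk, Myh3 and Tnnt2, which were used to choose the sections. Myog, which was not, was higher by 0.75 ± 0.14 (adjusted p = 0.0306). Chrnd differed by 0.78 ± 0.24 (adjusted p = 0.243), Chrng by 0.38 ± 0.22 (adjusted p = 0.626), Chrnb1 by 0.04 ± 0.11 and Chrne by -0.09 ± 0.16, and none passed.

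The call of Chrna1 in these sections was lost under 5 of 14 alternatives. These were DESeq2 (0.54, adjusted p = 0.737, with 0 genes called and 166 at an unadjusted p below 0.05) and the fit without the section filter. The others left out DMD replicate 3 (0.44, adjusted p = 0.151) or used the top 10% of sections (0.45, adjusted p = 0.0626) or smoothed scores (0.47, adjusted p = 0.196). Without DMD replicate 2, Chrnd passed as well (0.92, adjusted p = 0.0177). Regenerating-fibre-rich sections lay at a median position of 88.5, 79.1 and 38.3% of the section order in DMD replicates 1 to 3. Chrna1 peaked in stretches 10, 10 and 4 of the same muscles, and Chrng in stretches 9, 8 and 1. In replicate 3 the Chrng peak held only 4 of 29 counts (2.47 CPM). It cannot be told apart from stretch 3, with 6 counts (2.13 CPM).

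As a description over sections of 1 muscle, which share library and depth, the Pearson correlation of log2 (CPM + 10) between Chrna1 and the regenerating score was 0.82 in DMD replicate 1 (65 sections), 0.41 in replicate 2 (67) and 0.60 in replicate 3 (60). Chrna1 also correlated with the log2 section total, at 0.10, 0.20 and 0.63 in DMD replicates 1 to 3. That correlation was 0.49 in WT replicate 1 and 0.24 and 0.30 in Ctr replicates 1 and 2. For Chrne it ran from 0.03 (Ctr replicate 1) to 0.41 (DMD replicate 1). The part of depth in the correlations of this paragraph was not tested. In WT replicate 1 and Ctr replicates 1 and 2, the correlation of Chrna1 with the regenerating score was 0.06, 0.15 and 0.19. Chrna1 correlated with Chrne at 0.47, 0.44 and 0.65 in these 3 muscles and at 0.31, 0.23 and 0.38 in DMD. Chrnb1 and Chrne correlated between -0.21 and 0.09 in all 7 muscles.

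The genes whose pattern over sections was most like each member, by the mean Pearson correlation of log2 (CPM + 10) over the muscles where the member had at least 50 counts, differed between members. For Chrne, over 7 muscles, they included Prkar1a (0.48), which encodes a regulatory subunit of protein kinase A, the myelin gene Mbp (0.44), the mast cell gene Tpsb2 (0.32) and Apod (0.31). For Chrna1, over 6 muscles, they were Prkar1a (0.44), Pcbp2 (0.40), the intermediate filament gene Nes (0.34), Ak3 (0.34) and Tacc2 (0.33). Prkar1a thus led both lists, and 99% of the genes compared lay below 0.20 for Chrne and 0.27 for Chrna1. The named genes were picked as the highest of this ranking, so they lie above that bound by choice. Between muscles Prkar1a ran from 0.18 to 0.64 for Chrne and from -0.00415 to 0.70 for Chrna1.

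For Chrng, over DMD replicates 1 and 2, the closest were Igfbp5 (0.56), Myog (0.55), Pcbp2 (0.54), Vash2 (0.54) and Hdgf (0.53), where 99% of genes lay below 0.44. For Chrnb1, over 7 muscles, the highest were Tgfbr1 (0.27), Dvl1 (0.25), Abcc9 (0.25), Atp1b2 (0.24) and Hspb8 (0.24), only a little above the 99th percentile of 0.21. For Chrnd only DMD replicate 1 had enough counts, and the closest genes there were Pcdhga12 (0.80), Sfpq (0.79), Akr1a1 (0.79), Pcdhgb5 (0.79) and Lasp1 (0.79), where 99% of genes lay below 0.74 and the median was 0.31. Pcdhga12 and Pcdhgb5 share exons, so reads were divided between them. With Chrna1 itself Chrnd correlated at 0.68 in that muscle and with Chrnb1 at 0.19.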

How the data were processed

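The deposited tables held 1 column per section of a muscle, in expected counts: per the file headers, reads were assigned with featureCounts 2.0.1 by gene name on 1 strand, and reads that mapped to several places or genes were divided into fractions. Alignment was to GRCm38 with STAR 2.7.7a, as listed in the submitters' processing notes. Per the labels, read 2 held a molecular identifier and a section barcode. The WT tables listed 55460 gene names and the others 54414, and the 53083 shared genes were used. No sample was left out.

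Sections with a total of at least 1000 and at least 20% of their muscle's median were kept, summed per muscle or section class, and rounded to whole numbers. Tests were edgeR 4.0.16 quasi-likelihood F tests in R 4.3.3 with filterByExpr and TMM over all 3 groups, and Benjamini-Hochberg adjustment over all genes tested. Section classes entered with the muscle as a term. The standard error is the absolute log2 difference divided by the square root of F. DESeq2 1.42.0 and the other alternatives are given in the closing section, and scripts were tested on simulated counts. The muscle was the replicate throughout.

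Genes were named by rule: the 5 members, up to 3 genes of each list per comparison (called ones first by size, otherwise the most highly expressed), and for each member the 5 genes most like it over sections, among genes with at least 5 CPM. The members and the lists were chosen with earlier results of these data known. The genes named outside this rule are Rapsn and, where so stated, 2 others. A gene that the rule names is not reported here.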

Additional observations from a re-analysis of the deposited data

Results flagged for a closer look

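The middle-to-outer difference of Chrna1 differed between DMD and Ctr by -1.65 log2 units (SE 0.26, edgeR quasi-likelihood test of the difference, adjusted p = 0.00226). Chrna1 was higher in middle than in outer sections in 2 of 2 Ctr muscles (1.73 ± 0.24). In the 3 DMD muscles the 2 sums were about level (0.07 ± 0.08), but the outer sum pools both ends of the section order. In the first 20%, middle and last 20% of sections, Chrna1 stood at 32.8, 56.9 and 84.3 unscaled CPM in DMD replicate 1. It stood at 48.0, 53.9 and 71.2 in replicate 2 and at 18.4, 30.1 and 26.4 in replicate 3. The middle and outer bounds were chosen after the profiles were seen, and the call rests on both Ctr muscles, since it was lost without either one (adjusted p = 0.512 and 0.178).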

How the results depend on the processing

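Of 782 member values under alternative settings, 662 kept their direction and side of the threshold, 61 lost the call, 41 gained it and 18 changed sign; causes were not tested. Chrna1 kept its call in DMD against Ctr and WT under all 13 alternatives each, with log2 differences of 2.68 to 3.07 and 2.86 to 3.22. The number of members called, Chrng included, was 4 in DMD against Ctr, and 1 to 5 when 1 muscle was left out. Against WT it was 3, and 5 with DESeq2, without a low-count filter and with the replicate block, and 1 to 4 when 1 muscle was left out. In synaptic-rich against remaining sections it was 0, and 1 without the section filter (Chrne), 1 with the top 30% of sections and 2 with smoothed scores. For DMD against Ctr in synaptic-rich sections it was 4, and 2 with only the 2 groups fitted and 0 to 4 when 1 muscle was left out; in the remaining sections it was 4, and 1 to 5. In regenerating-fibre-rich sections it was 1, and 0 with DESeq2, without the section filter, with the top 10% of sections and with smoothed scores, and 0 to 2 when 1 muscle was left out. In middle against outer sections it was 2, 1 with a middle of 30% and 3 with 50% (Chrnd, adjusted p = 0.0400); for the difference of that effect between DMD and Ctr it was 1, and 0 with a middle of 30% and 0 to 1 when 1 muscle was left out. For DMD against Ctr in the middle it was 3, and 5 without a low-count filter and with the replicate block, and 0 to 4 when 1 muscle was left out; in the outer sections it was 4, and 1 to 5. In each comparison of DMD with Ctr or WT these counts can include Chrng, which passed the low-count filter only through DMD. They are thus not read as a result. In the main fits 12.7% of all genes tested were called in DMD against Ctr and 15.2% against WT. Against Ctr the share was 8.28% in synaptic-rich, 12.2% in remaining, 10.8% in middle and 8.45% in outer sections. A lone muscle left in a group was assumed to vary like the others. The middle settings were chosen after seeing the data.

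Values that changed sign under a setting did not pass the test there. Kdr in DMD against Ctr was -0.0751, 0.0279 with the replicate block, and -0.396 to 0.297 when 1 muscle was left out. Left out in the same way, WT against Ctr ran from -0.350 to 0.0546 for Chrna1, -0.353 to 1.09 for Chrnd and -0.404 to 0.754 for Chrne. Chrnb1 in synaptic-rich sections was 0.0146 with the top 10% and 0.0129 with the short score list, and Chrnd ran from -1.59 (without Ctr replicate 1) to 1.35. In regenerating-fibre-rich sections Chrnb1 was -0.0170 without a low-count filter, -0.00585 with the top 10% and -0.0399 with smoothed scores, and Chrne ran from -0.342 to 0.257. Lyz2 in the middle ran from -0.0391 to 0.159. The effect of the middle on Chrnb1 differed from Ctr by -0.00683 without the section filter and by -0.102 to 0.326 when 1 muscle was left out, and from WT by -0.0800 to 0.461. That on Chrne differed from WT by -0.0569 with a middle of 30% and by -0.0308 to 0.199 when 1 muscle was left out.

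Replicate numbers are shared by the groups, but nothing in the labels ties same-numbered muscles together. Deviations of same-numbered muscles correlated at 0.15 and 0.23 between Ctr and DMD, 0.03 between WT and Ctr, and 0.01 and 0.10 between WT and DMD. With the replicate block, 3890 genes were called in DMD against Ctr in place of 1740, and 5 members in place of 4, Chrng included in both. Over all alternatives the number of genes called ran from 56 to 3890 in DMD against Ctr, 68 to 4063 against WT (main 2085), 2 to 860 between WT and Ctr (main 50), 0 to 157 in synaptic-rich sections (main 10), 34 to 1962 and 53 to 3676 for DMD against Ctr in synaptic-rich and remaining sections (main 820 and 1623), 0 to 399 in regenerating-fibre-rich sections (main 10) and 67 to 2876 and 25 to 2957 in middle and outer sections (main 1361 and 1026). Depth limits Chrnd and Chrng most, with 412 and 369 counts over all muscles.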
